A study of Bos taurus with 64 samples.

Results

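Skeletal muscle microRNAs (miRNAs) were compared between 8 low-RFI and 8 high-RFI Charolais steers fed zero-grazed grass, which are 16 of the 64 libraries of the series. The other 48 libraries are the remaining groups of 8, from Charolais steers on a high-concentrate diet and from Holstein-Friesian steers on either diet. Residual feed intake (RFI) is the feed an animal eats above or below what its size and growth predict, so a low-RFI steer is the more efficient. Charolais is a beef breed and Holstein-Friesian a dairy breed. The comparison asks which muscle miRNAs go with feed efficiency in the beef breed on fresh forage. All differences below are low minus high RFI.

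Intake had been recorded in 90 Charolais steers over a phase of 70 days on fresh ryegrass herbage, and muscle was sampled at the end of that phase. The libraries were assigned from the breed, RFI class and diet in the labels. The labels name the tissue as skeletal muscle without saying which muscle, and they do not give the RFI values or how far apart the classes lay. Within the comparison each library was a different steer. Of these 16 steers, 4 also gave a library on concentrate. For 3 of the 4 the RFI class was the same in both phases, and high-RFI replicate 2 was labelled low-RFI on concentrate.

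A miRNA is a short RNA that pairs through its seed, a stretch near its 5′ end, with messenger RNAs and lowers their translation or stability. Skeletal muscle holds a set of muscle-enriched miRNAs, the myomiRs, some of which sit inside myosin heavy chain genes and are made with the fibre type they belong to. Other miRNAs in a muscle sample come from its vessels, blood, nerves, connective tissue and resident immune cells.

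Total counts per library ran from 5632140 to 10413700 in the low-RFI and from 7046890 to 10312400 in the high-RFI group. A low-RFI library held 492.6 ± 41.0 miRNAs with a count and a high-RFI library 510.1 ± 19.7 (SD, n = 8 each). In 2-sided exact permutation tests over 12870 arrangements, neither depth (P = 0.4232) nor the number of miRNAs with a count (P = 0.2932) differed beyond the spread, and the smallest adjusted p of the 5 library measures was 0.7053. Each library correlated with the mean of its own group at r between 0.9875 and 0.9966 across miRNAs, on log2 CPM. CPM is the count per library size, set to a common size after TMM scaling, which correct for a few dominant miRNAs. Those factors ran from 0.644 to 1.88 in the low-RFI and from 0.921 to 1.40 in the high-RFI libraries, with the highest in low-RFI replicate 5.

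Muscle-enriched miRNAs were among the most abundant in the libraries. Not every myomiR was, since miR-1 and miR-206 were far scarcer (values below), and miR-486 is also abundant in red blood cells. miR-10b, encoded in the HOXD gene cluster, took 52.8% ± 9.93 of the counts in low-RFI and 52.5% ± 5.62 in high-RFI steers (SD, n = 8 each). The myomiR miR-486, from an intron of the ankyrin gene ANK1, took 12.3% ± 1.45 and 11.6% ± 1.97. miR-133a, a muscle miRNA that acts on myoblast growth, took 9.23% ± 2.53 and 8.62% ± 1.51. Together the leading 10 miRNAs made up 90.2% of all counts. Epithelial markers were near the detection limit: the summed CPM of the 6 members found in the table stayed between 0.956 and 3.96 in the low-RFI and between 0.842 and 5.31 in the high-RFI libraries.

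Of the 318 miRNAs abundant enough to test, 0 passed an adjusted p of 0.05 between low and high RFI (0.0%) in edgeR's quasi-likelihood test with Benjamini-Hochberg adjustment, where the smallest adjusted p was 0.867. DESeq2 and limma-voom also called 0. At an unadjusted p under 0.05 edgeR gave 17 miRNAs (5.35%), 8 of them higher (2.52%) and 9 lower (2.83%) in low-RFI steers. The same count was 18 with DESeq2 and 11 with limma-voom. Scaling by total counts alone changed that split to 0 higher and 8 lower, and it moved the median of all tested miRNAs by -0.12 on the log2 scale. Upper-quartile scaling split its calls 12 to 6 and RLE scaling 9 to 6. A fit on these 16 libraries alone gave 10 higher and 16 lower.

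The differences were small and centred near 0. The median log2 difference was -0.01, with quartiles at -0.19 and 0.15, and 154 miRNAs lay above 0 against 164 below. Only miR-2887 and miR-338 exceeded 1 on the log2 scale in either direction. The median standard error (SE) was 0.23. For 267 of the 318 miRNAs the 95% confidence interval stayed within a 2-fold change in either direction. Among the 172 miRNAs at 10 CPM or more this held for 160, and among the 90 at 100 CPM or more for 87. The interval stayed within 1.5-fold for 143 of the 318. For nearly all abundant miRNAs a change of 2-fold or more therefore lay outside the interval, while smaller changes often lay within it.

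**Figure D1:**
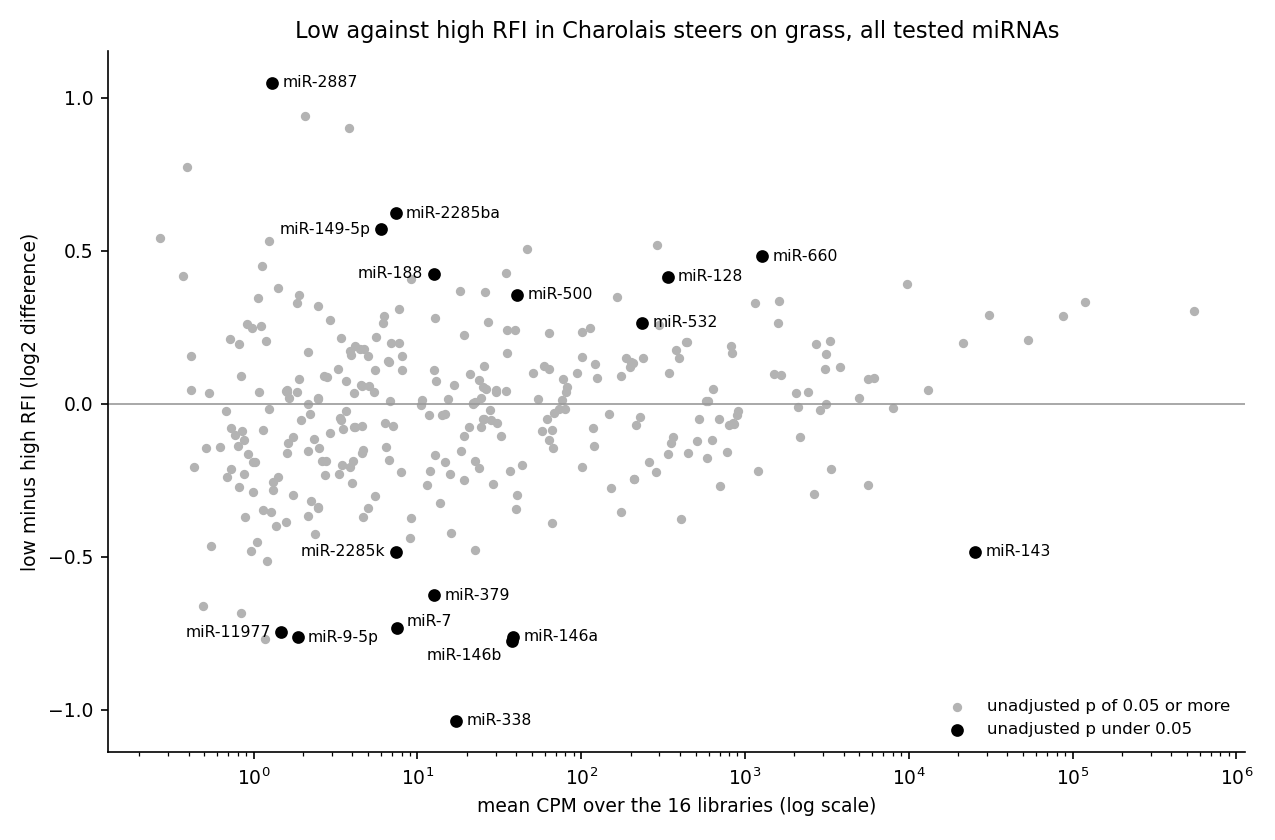
Each point is 1 of the 318 tested miRNAs, with mean CPM over the 16 libraries on a log axis and the log2 difference of low minus high RFI on the vertical axis; black points have an unadjusted p under 0.05. The 17 black points are spread over the range of abundance, with 8 above and 9 below 0, and none passed the adjusted threshold of 0.05.

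No miRNA had 8 low-RFI values and 8 high-RFI values that did not overlap (0 of 318, 0.0%). A weaker ordering, all 8 low-RFI libraries on the same side of the high-RFI median, was counted without a test. It was seen for 13 of the 318. Of these, 3 lay above (miR-149-5p, miR-33a and miR-21-3p) and 10 below (miR-379, miR-7, miR-146a, miR-143, miR-11977, miR-2285k, miR-139, miR-132, miR-409a and miR-1271). miR-33a, miR-21-3p, miR-139, miR-132, miR-409a and miR-1271 are named here after their values were seen. None of these 6 had an unadjusted p under 0.05.

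The myomiRs did not separate the classes. miR-486 ran from 71388 to 204353 CPM (median 124949) in low-RFI and from 88816 to 130203 (median 105839) in high-RFI steers. Its low-RFI values spanned the whole high-RFI range, with 7 of 8 above the high-RFI median and a log2 difference of 0.33 ± 0.19 (SE; 95% interval -0.05 to 0.71). miR-133a had medians of 88367 and 78731 CPM and a difference of 0.29 ± 0.21. miR-133b, its close relative on another chromosome, differed by 0.39 ± 0.24 (95% interval -0.09 to 0.87), with 4 low-RFI libraries above every high-RFI one. With total-count scaling these differences shrank to 0.0886 for miR-486, 0.0985 for miR-133a and 0.16 for miR-133b, and without low-RFI replicate 3 that of miR-486 was 0.22.

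The remaining myomiRs were given to complete the list, miR-1 and miR-206 beyond the naming rule. miR-1, a driver of myoblast differentiation, had medians of 215 and 220 CPM and a difference of -0.04 ± 0.18. miR-206, typical of regenerating and slow muscle, had medians of 9.14 and 10.3 CPM and a difference of -0.38 ± 0.32. The classes overlapped for both. The slow-fibre miRNA miR-208b, encoded in the slow myosin gene MYH7, had the same median of 871 CPM in both classes (log2 difference -0.02 ± 0.21). miR-499, from the slow-type myosin gene MYH7B, stood at medians of 390 and 357 CPM with a difference of -0.13 ± 0.26, which was -0.022 without low-RFI replicate 2 and -0.21 without low-RFI replicate 6. miR-208a, the cardiac relative, was scarce at 0.857 and 0.578 CPM and differed by 0.04 ± 0.60, an estimate that ran from -0.48 without low-RFI replicate 2 to 0.83 without high-RFI replicate 8.

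Over all 8 myomiRs, 4 lay above and 4 below 0 and the median log2 difference was 0.01, beside -0.01 for all tested miRNAs. With total-count scaling it was -0.11, beside -0.13 for all tested. None passed the test.

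The other abundant miRNAs also overlapped. miR-10b ranged from 178097 to 965657 CPM among low-RFI and from 319347 to 609008 among high-RFI steers, a log2 difference of 0.30 ± 0.29. The wide low-RFI range took in every high-RFI value. The miR-10b difference was 0.18 without low-RFI replicate 3 and 0.0073 with total-count scaling. miR-26a, which promotes myoblast differentiation, had medians of 54663 and 46369 CPM and a difference of 0.21 ± 0.18, or 0.0446 with total-count scaling and 0.32 without high-RFI replicate 1. miR-22-3p, studied in muscle growth and lipid use, had medians of 33288 and 26407 CPM and a difference of 0.29 ± 0.17 (95% interval -0.04 to 0.63), with 7 of 8 low-RFI libraries above the high-RFI median, or 0.17 with total-count scaling. miR-378, encoded in the gene of the mitochondrial coactivator PGC-1β, had medians of 23545 and 19810 CPM and a difference of 0.20 ± 0.17, which was 0.11 without low-RFI replicate 7 and -0.0048 with total-count scaling. miR-10a and miR-30e-5p stood at 0.05 ± 0.30 and -0.01 ± 0.17.

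The nearest to the threshold among all 318 was miR-149-5p, a scarce miRNA studied in mitochondrial and lipid metabolism. It ran from 5.42 to 9.37 CPM (median 7.34) in low-RFI and from 3.67 to 6.83 CPM (median 4.66) in high-RFI steers. All 8 low-RFI libraries lay above the high-RFI median and 5 lay above every high-RFI library, but the ranges overlapped. The log2 difference was 0.57 ± 0.20 (1.48-fold, 95% interval 0.17 to 0.97), and it stayed between 0.50 and 0.65 when any single library was left out. By edgeR's test the adjusted p was 0.867, as for each of the 10 miRNAs with the smallest p in either direction described next, so none of them passed.

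miR-128, a miRNA of brain and muscle made from an intron of R3HDM1, ran from 258 to 524 CPM (median 361) in low-RFI and from 210 to 342 CPM (median 298) in high-RFI steers. Of the low-RFI libraries 6 exceeded every high-RFI library. The log2 difference was 0.41 ± 0.19 (95% interval 0.03 to 0.80) and 0.22 with total-count scaling. miR-128 is among the names with fractional counts in the table, which were rounded, as are miR-26a, miR-378, miR-29b, miR-2285k and let-7f.

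Among the 8 miRNAs on the higher side with an unadjusted p under 0.05 (2.52% of all tested), 4 came from neighbouring genes. miR-532, miR-188, miR-500 and miR-660 lie with miR-362 and miR-502 in a run of hairpins on the X chromosome, in other mammals known to sit within the chloride channel gene CLCN5. RefSeq gene neighbours of the cattle assembly ARS-UCD2.0, joined where hairpins lay within 10000 bases, gave 7 hairpins with 8 tested names. miR-660, the most abundant, ran from 1016 to 2583 CPM (median 1351) in low-RFI and from 791 to 1382 CPM (median 1059) in high-RFI steers. Low-RFI replicate 3 held the highest value, and 4 low-RFI libraries lay above every high-RFI one. The log2 difference was 0.48 ± 0.23 (95% interval 0.03 to 0.93), or 0.32 without that library.

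miR-532 ran from 206 to 306 CPM (median 258) against 172 to 259 (median 211), with 4 low-RFI libraries above and 4 high-RFI libraries below the range of the other class. Its difference was 0.26 ± 0.11 (95% interval 0.04 to 0.49). miR-188, at medians of 15.6 and 11.1 CPM, differed by 0.42 ± 0.20 (95% interval 0.02 to 0.83), with 6 low-RFI libraries above all high-RFI ones. miR-500, at medians of 48.3 and 33.4 CPM, differed by 0.36 ± 0.17 (95% interval 0.01 to 0.70), or 0.21 with total-count scaling.

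The remaining 4 names of the neighbourhood were looked at after these values were seen, so their direction is a description. miR-502b differed by 0.41 ± 0.23, miR-362-3p by 0.29 ± 0.17, miR-362-5p by 0.24 ± 0.15 and miR-502a by 0.18 ± 0.27. All 8 names therefore lay above 0, with a median log2 difference of 0.32 beside -0.01 for all tested miRNAs. This was the highest median among the 13 neighbourhoods of 3 or more hairpins, the next being 0.05 for the neighbourhood of miR-363. The lowest, -0.35, belonged to the neighbourhood of miR-3431, miR-224 and miR-452, also on the X chromosome. The miR-532 neighbourhood was picked for 4 of its 8 names, which enter its median, so its rank adds no support. The summed CPM of the miR-532 neighbourhood ran from 2091 to 4182 in low-RFI and from 1295 to 2567 in high-RFI steers, so the sums overlapped. Neighbouring miRNAs can share a transcript and are not independent of each other. The median was 0.26 without low-RFI replicate 3, 0.41 without high-RFI replicate 7 and 0.19 with total-count scaling. In the other RFI comparisons it was -0.13 for Charolais on concentrate, 0.07 for Holstein-Friesian on grass and -0.03 for Holstein-Friesian on concentrate.

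The other 4 of the 10 named on the higher side were less even across libraries. miR-2285ba, of a family described in ruminants, ran from 2.53 to 22.3 CPM in low-RFI and from 3.92 to 10.6 in high-RFI steers. Its difference of 0.62 ± 0.27 (95% interval 0.08 to 1.17) was 0.30 without low-RFI replicate 6. miR-2887, described in cattle, was scarce, at medians of 1.07 and 0.605 CPM. Its difference of 1.05 ± 0.50 (95% interval 0.04 to 2.06) was 0.52 without low-RFI replicate 2 and 1.57 without high-RFI replicate 7. miR-193a-3p had medians of 39.7 and 27.7 CPM and a difference of 0.43 ± 0.21 (95% interval -0.00 to 0.85), and the other arm of its hairpin, miR-193a-5p, differed by 0.28 ± 0.22. miR-29b, which represses collagen genes, differed by 0.37 ± 0.19 (95% interval -0.01 to 0.74) and by 0.20 without low-RFI replicate 3. miR-29b shared its place above 0 with its relatives miR-29a and miR-29c, which stood at 0.15 ± 0.14 and 0.15 ± 0.15.

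On the lower side the nearest to the threshold was miR-146b, which with miR-146a is induced by inflammatory signals and dampens innate immune signalling through IRAK1 and TRAF6. miR-146b ran from 13.4 to 51.7 CPM (median 24.7) in low-RFI and from 14.99 to 80.5 CPM (median 44.0) in high-RFI steers. Of the low-RFI libraries 7 of 8 lay below the high-RFI median, and high-RFI replicate 5 was the low exception among the high-RFI libraries. The log2 difference was -0.78 ± 0.30 (1.71-fold lower, 95% interval -1.38 to -0.17), between -0.97 and -0.63 when any single library was left out. miR-146a, from another gene but with the same seed, ran from 12.8 to 35.1 CPM (median 31.1) and from 18.9 to 74.9 CPM (median 49.9). All 8 low-RFI libraries lay below the high-RFI median, 5 high-RFI libraries lay above every low-RFI one, and the difference was -0.76 ± 0.32 (95% interval -1.40 to -0.12).

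Other leukocyte miRNAs lay closer to 0, with differences from -0.38 to 0.04 and SEs from 0.12 to 0.50. miR-142-5p, found throughout blood cells, had medians of 209 and 355 CPM and a difference of -0.38 ± 0.44, which was -0.0314 without high-RFI replicate 8 and -0.58 without low-RFI replicate 2. miR-342 differed by 0.01 ± 0.12. Of the 8 leukocyte markers 6 lay below 0, with a median of -0.30 (-0.03 without high-RFI replicate 8 and -0.49 without low-RFI replicate 1). None of the 8 passed the test. Their summed CPM ran from 314 to 905 in low-RFI and from 340 to 1415 in high-RFI steers. The part of leukocyte content in the miR-146 values was not tested, and in bulk muscle fewer cells of a type and less RNA per cell cannot be told apart.

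miR-143, the smooth muscle miRNA that has also been tied to insulin signalling, was the most abundant of the 17. It ran from 16279 to 26645 CPM (median 20048) in low-RFI and from 22469 to 37632 CPM (median 27917) in high-RFI steers. Of the low-RFI libraries 5 lay below every high-RFI library, and 4 high-RFI libraries lay above every low-RFI one. The log2 difference was -0.48 ± 0.22 (1.40-fold lower, 95% interval -0.93 to -0.04), between -0.54 and -0.43 when any single library was left out. miR-145, a separate hairpin that shares a primary transcript with miR-143, had medians of 888 and 769 CPM and a difference of 0.19 ± 0.35. That difference was 0.022 without low-RFI replicate 4, 0.0415 without high-RFI replicate 1, 0.31 without low-RFI replicate 5 and -0.11 with total-count scaling.

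Of the 7 smooth muscle and fibroblast markers 5 lay below 0, with a median of -0.28, and none passed the test. Their summed CPM ran from 18335 to 29356 in low-RFI and from 24464 to 40841 in high-RFI steers, most of it miR-143 itself. The connective tissue miRNA miR-21-5p differed by 0.26 ± 0.23, by -0.05 without low-RFI replicate 2 and by 0.42 without high-RFI replicate 2. Both arms of the endothelial miR-126 stood at -0.27, with SEs of 0.14 for miR-126-5p and 0.15 for miR-126-3p, and in each 7 of 8 low-RFI libraries lay below the high-RFI median. The summed CPM of the miR-126 arms ran from 4729 to 7767 in low-RFI and from 4844 to 8851 in high-RFI steers. How far vessel content enters the miR-143 values was not tested.

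**Figure D2:**
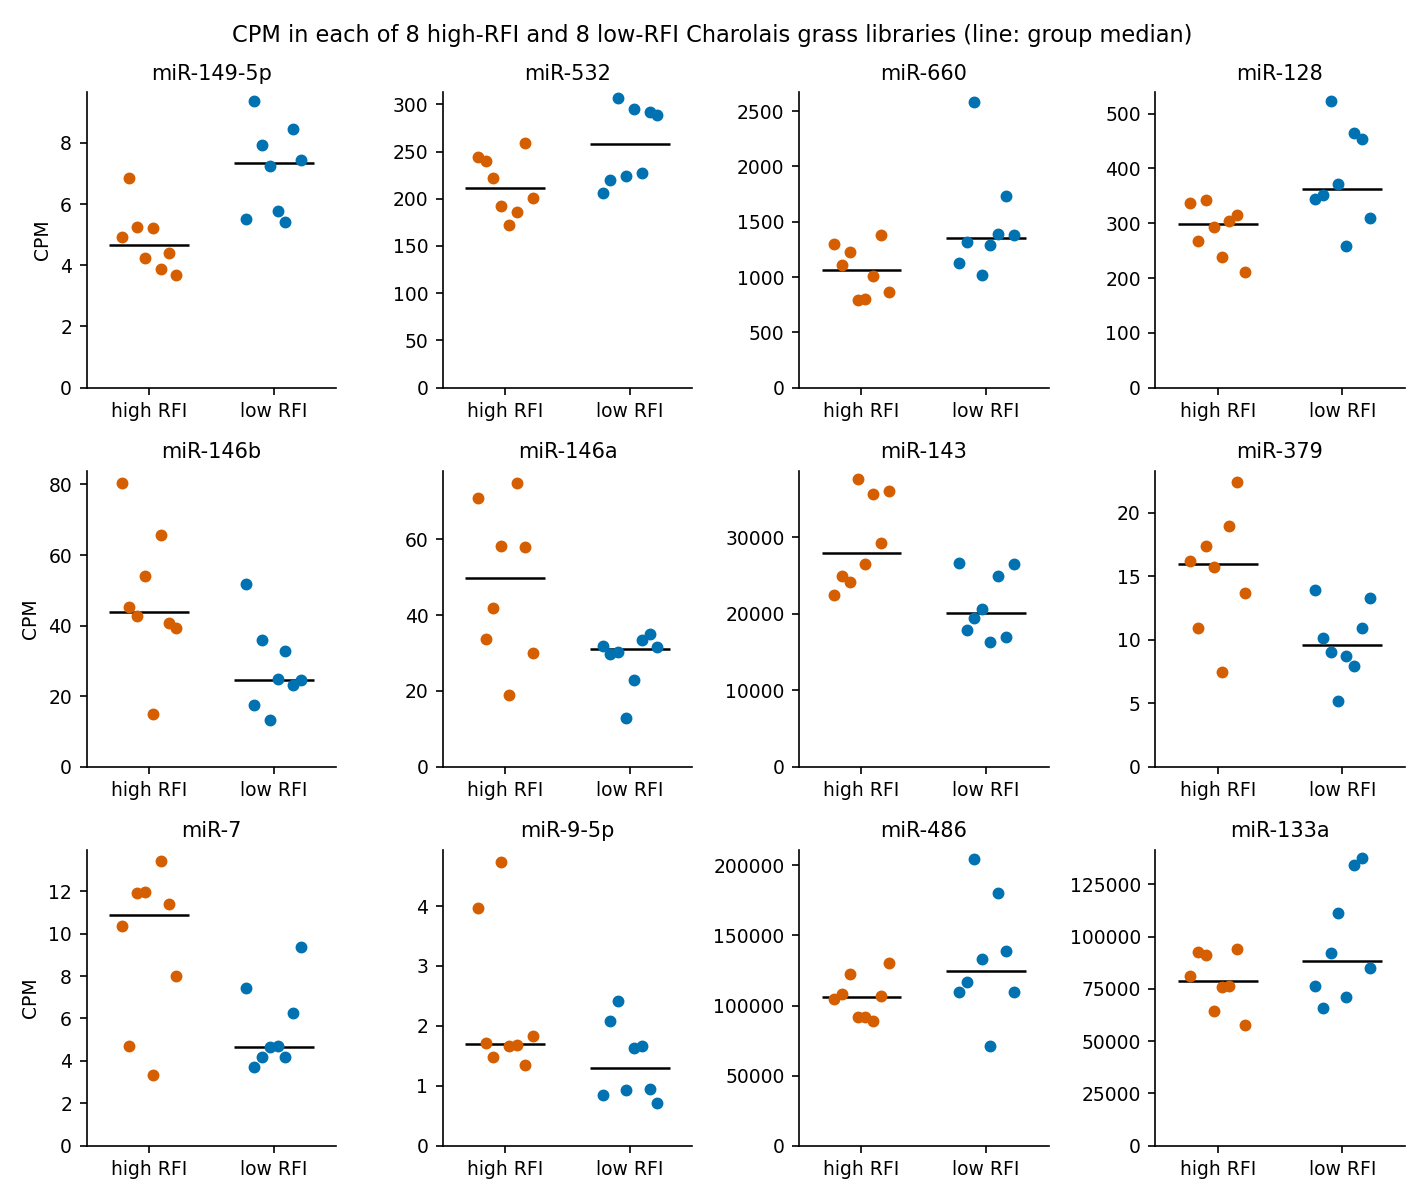
CPM of 12 miRNAs in each of the 8 high-RFI (orange) and 8 low-RFI (blue) Charolais grass libraries; each point is a library and the line is the group median. The groups overlap in every panel, with miR-149-5p and miR-128 reaching higher and miR-143, miR-146a and miR-379 staying lower in low-RFI steers.

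miR-379 heads the large run of miRNAs in the imprinted DLK1-DIO3 region, a locus that acts on muscle growth in sheep and other mammals. It ran from 5.20 to 13.9 CPM (median 9.57) in low-RFI and from 7.496 to 22.4 CPM (median 15.98) in high-RFI steers. All 8 low-RFI libraries lay below the high-RFI median and 5 high-RFI libraries lay above every low-RFI one. The log2 difference was -0.63 ± 0.26 (1.54-fold lower, 95% interval -1.14 to -0.11). Its neighbours were closer to 0: among the 21 tested names of that run 8 lay above and 13 below 0, with a median of -0.08, and only miR-379 had a p under 0.05. miR-411a, the next hairpin and the most abundant of the run, differed by -0.12 ± 0.16, and miR-381 by -0.14 ± 0.22. Without single libraries these ran from -0.20 to -0.0505 for miR-411a and from -0.24 to 0.0335 for miR-381.

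miR-7 and miR-9-5p, both known from neurons and the former also from endocrine cells, were the only 2 tested of 9 markers of neuron and nerve. miR-7 ran from 3.72 to 9.35 CPM (median 4.67) in low-RFI and from 3.31 to 13.4 CPM (median 10.9) in high-RFI steers, with 5 high-RFI libraries above every low-RFI one and high-RFI replicate 5 below them all. Its log2 difference was -0.73 ± 0.30 (95% interval -1.34 to -0.12). miR-9-5p was at the edge of detection, at medians of 1.29 and 1.69 CPM, and differed by -0.76 ± 0.31 (95% interval -1.39 to -0.13). High-RFI replicates 1 and 4 held 3.97 and 4.73 CPM, while the next highest high-RFI library held 1.84 and the low-RFI libraries reached 2.42. Without high-RFI replicate 4 the miR-9-5p difference was -0.53. The other 7 markers were too scarce to test, and the summed CPM of the list ran from 6.04 to 10.5 and from 5.603 to 17.6. The part of nerve content in these values was not tested.

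The other 4 of the 10 named on the lower side were mostly scarce. miR-11977, at medians of 0.931 and 1.76 CPM, differed by -0.75 ± 0.37 (95% interval -1.48 to -0.01). miR-2285k, at medians of 5.96 and 8.95 CPM, differed by -0.48 ± 0.24 (95% interval -0.97 to -0.00), with 6 high-RFI libraries above every low-RFI one. miR-338, known from myelinating cells, had the furthest difference of all on the lower side at -1.04 ± 0.52 (95% interval -2.07 to -0.00), but its medians of 10.9 and 10.2 CPM were alike. High-RFI replicates 1 and 4 alone lay far above the rest, at 67.4 and 66.0 CPM, and without replicate 1 the difference was -0.57. miR-195, a cell cycle regulator of the miR-15 and miR-16 family, had medians of 152 and 201 CPM and a difference of -0.35 ± 0.19 (95% interval -0.73 to 0.02), while its genomic partner miR-497 stood at -0.09 ± 0.14.

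Erythrocyte miRNAs varied widely within both classes. miR-451, the main miRNA of red blood cells, ran from 316 to 8574 CPM in low-RFI and from 297 to 10258 CPM in high-RFI steers, a difference of -0.21 ± 0.73 that could be of either sign. miR-144, from the same transcript, differed by -0.30 ± 0.74. All 4 tested erythrocyte and platelet markers lay below 0, with a median of -0.35 (-0.06 without high-RFI replicate 8 and -0.61 without low-RFI replicate 1), and none passed the test. Their list summed to between 325 and 8666 CPM in low-RFI and between 302 and 10429 CPM in high-RFI steers. miR-486 is also abundant in red blood cells, and their part in its value was not tested.

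**Figure D3:**
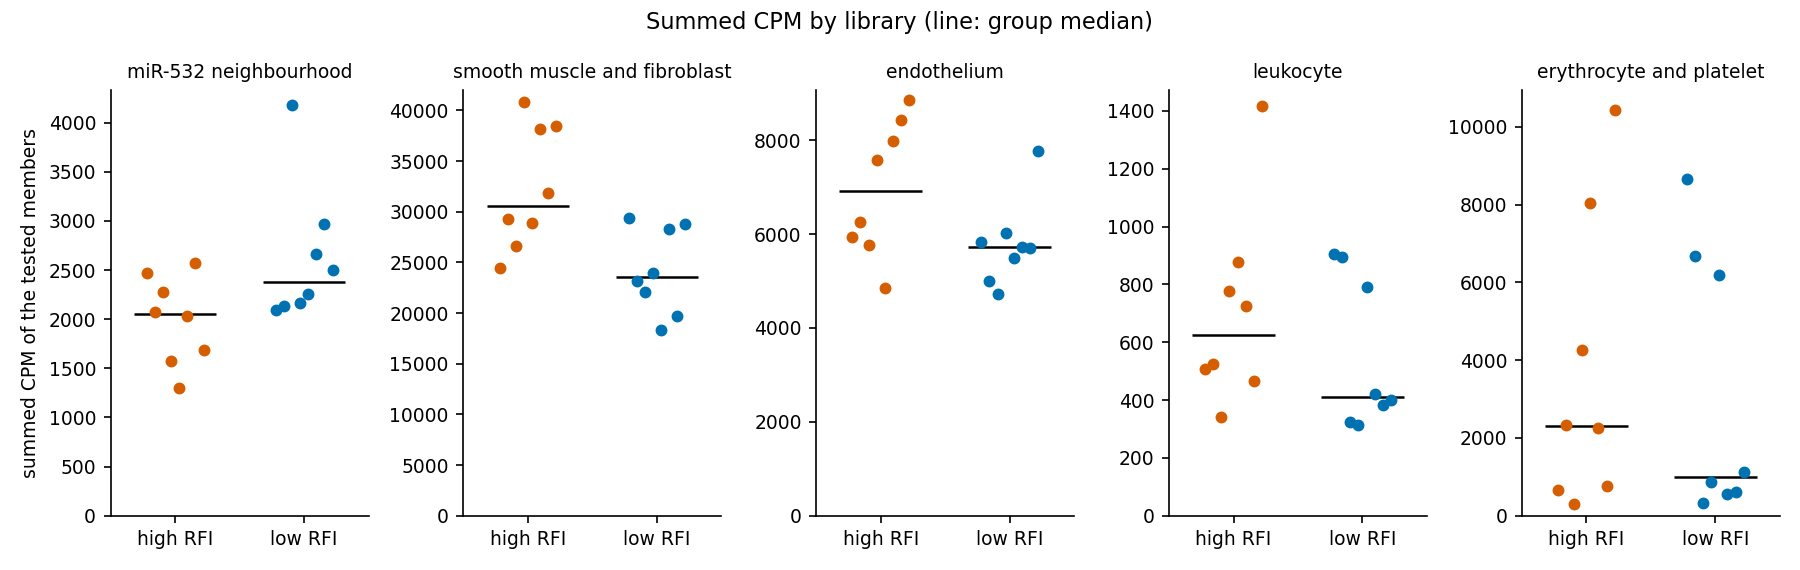
Summed CPM of the tested members of the miR-532 neighbourhood and of 4 cell-type marker lists in each of the 8 high-RFI (orange) and 8 low-RFI (blue) libraries; the line is the group median. The classes overlap in every panel. Relative to their lowest value the erythrocyte and platelet sums vary the most, from 302 to 10428 CPM in high-RFI steers.

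The lists of function were chosen with earlier results of these data known, so they are described by counts and medians. Among 28 tested regulators of myoblast proliferation and differentiation 18 lay above and 10 below 0, with a median log2 difference of 0.04. Of these only miR-128 had an unadjusted p under 0.05. Among 24 miRNAs of lipid metabolism and adipogenesis 16 lay above and 8 below 0, with a median of 0.12, where miR-149-5p had a p under 0.05 on the higher and miR-143 on the lower side. Among 19 miRNAs of insulin and glucose signalling 6 lay above and 13 below 0, with a median of -0.09 and miR-143 alone under 0.05. The 15 miRNAs of hypoxia and mitochondrial function split 8 to 7, with a median of 0.01, miR-149-5p on the higher and miR-338 on the lower side.

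The 5 lists of families and clusters had medians within 0.1 of 0. The 10 names of let-7 and miR-98, which restrain growth signalling, had a median of -0.04 with every member between -0.18 and 0.14. Their most abundant member let-7f ran from 2337 to 3719 CPM against 2704 to 3515 and differed by -0.0005 ± 0.10. The 13 names of miR-17-92 and its paralogous clusters, which drive proliferation, had a median of -0.05. The 26 tested DLK1-DIO3 miRNAs had a median of -0.09 with 18 below 0. The 5 tested names of the miR-424 and miR-450 cluster, tied to muscle differentiation, had a median of 0.04, and the 41 tested names of miR-2284 and miR-2285, a large family of ruminants, a median of 0.00. The liver markers, 4 tested, had a median of -0.10, which was -0.0378 without high-RFI replicate 1 and 0.13 without the 4 steers also sampled on concentrate.

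None of the members of these lists passed the test. Over all miRNAs 5.35% had an unadjusted p under 0.05, and no list was tested against that share. With total-count scaling the medians above 0 turned negative, to -0.07 for myoblast regulators, -0.06 for lipid metabolism, -0.09 for hypoxia, -0.12 for the miR-424 and miR-450 cluster and -0.13 for miR-2284 and miR-2285. The median of all tested miRNAs was then -0.13, so only lipid metabolism and myoblast regulators lay more than 0.05 above it. Other medians also changed sign. That of miR-17-92 was 0.0756 without high-RFI replicate 8, that of myoblast regulators -0.0104 without the same library, and that of insulin and glucose signalling 0.0135 without the 4 steers also sampled on concentrate.

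**Figure D4:**
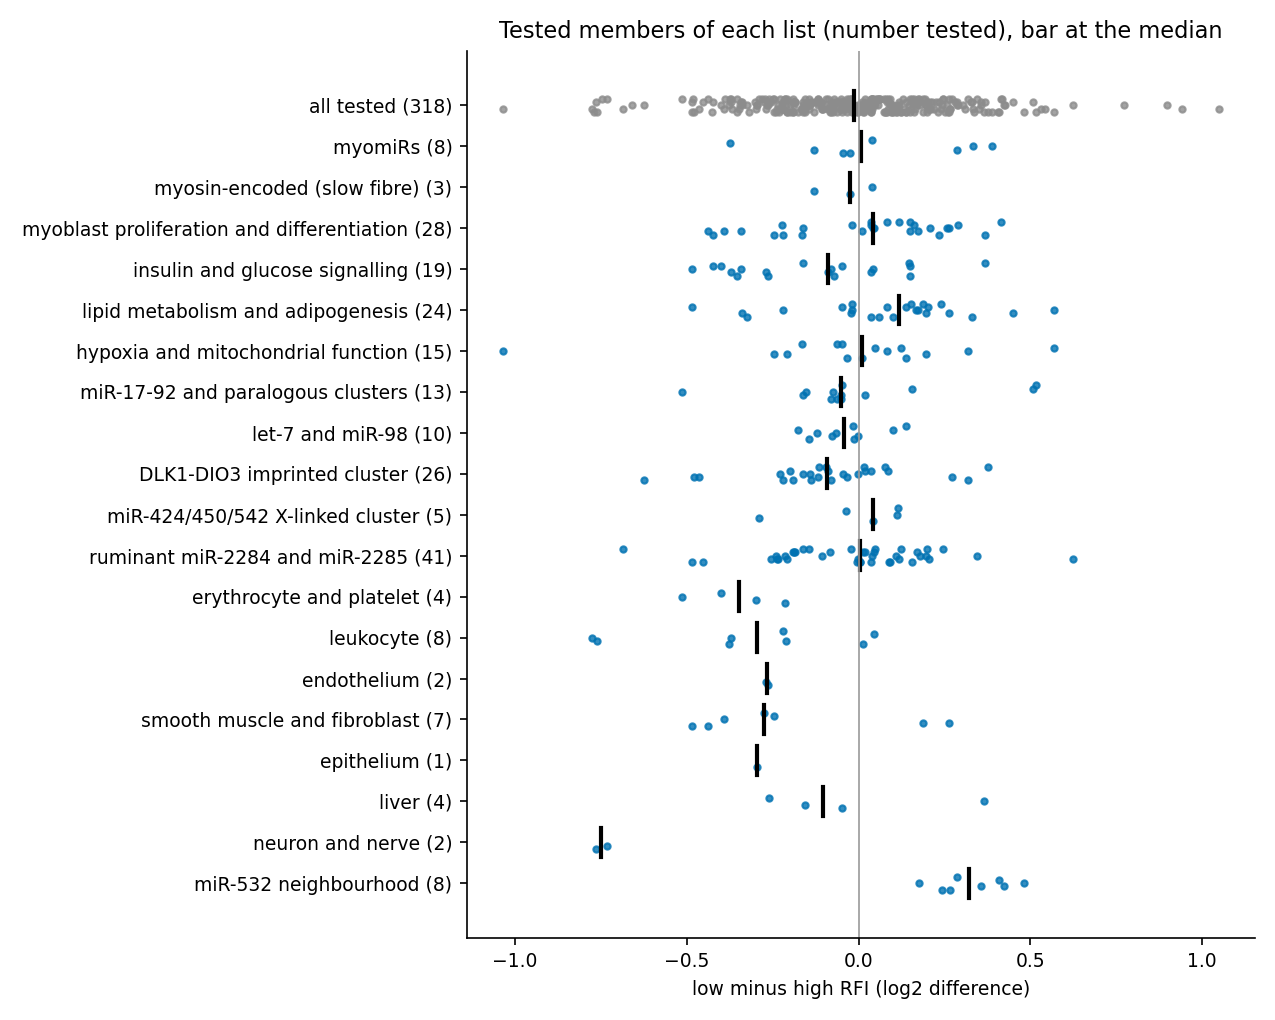
Log2 difference of low minus high RFI for each tested member of the lists of function, the marker lists and the miR-532 neighbourhood, with the black bar at the median and all 318 tested miRNAs in grey on top. Most function lists have medians within 0.1 of 0 (with total-count scaling those above 0 turn negative). The erythrocyte, leukocyte, endothelium and smooth muscle lists lie near -0.3. Without high-RFI replicate 8 the erythrocyte median was -0.06 and the leukocyte median -0.03. Neuron and nerve (2 tested) lies at -0.75 and epithelium (1 tested) at -0.30. The miR-532 neighbourhood, picked for 4 of its names, lies at 0.32.

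Both arms of a hairpin come from the same precursor. They were counted in the same libraries, so a shared sign is not separate evidence of an RFI difference. In 26 hairpins both arms were tested, and in 21 they had the same sign, with a median gap of 0.08 between the arms' log2 differences and a largest gap of 0.37 for miR-27a. miR-362 stood at 0.24 and 0.29, miR-22 at 0.25 and 0.29, and miR-199a at -0.39 and -0.25 for the 5p and 3p arms. The counts of miR-199a-3p were fractional and nearly the same as those of miR-199c, which also differed by -0.25. Its value is therefore not a reading of the miR-199a hairpin alone. miR-27a stood at -0.39 ± 0.28 for the scarce 5p arm and -0.02 ± 0.12 for the abundant 3p arm.

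Whether these differences were particular to Charolais steers was tested against Holstein-Friesian steers on the same grass diet. By edgeR's interaction test 0 of 318 miRNAs had an RFI difference that itself differed between the breeds at an adjusted p of 0.05 (0.0%), and 21 did so at an unadjusted p under 0.05 (6.6%). DESeq2 gave 23 and limma-voom 18 at the unadjusted threshold, and each called 0. The smallest p belonged to miR-143, whose difference of -0.48 ± 0.22 in Charolais stood beside 0.61 ± 0.22 in Holstein-Friesian steers. The gap was -1.10 ± 0.31 (adjusted p = 0.269 in edgeR's test). miR-455-3p, encoded in a collagen gene, stood at -0.26 ± 0.23 beside 0.75 ± 0.22, and the scarce miR-2285bm at -0.69 ± 0.42 beside 1.08, both with an adjusted p of 0.269 in edgeR's test for the gap. The endothelial miR-126-3p stood at -0.27 in Charolais and 0.28 in Holstein-Friesian steers (gap -0.55 ± 0.21, adjusted p = 0.541 in edgeR's test).

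The same test between diets within Charolais gave 0 miRNAs at an adjusted p of 0.05 (0.0%) and 17 at an unadjusted p under 0.05 (5.35%) in edgeR. DESeq2 gave 23 and limma-voom 11 at the unadjusted threshold, and each called 0. These fits took the libraries as independent, although 4 of the Charolais steers gave a library on both diets. With the animal as a random block limma-voom gave 16 and also called 0. In edgeR the smallest p belonged to miR-149-5p, which stood at 0.57 on grass and -0.26 on concentrate. Its gap was 0.83 ± 0.28 (adjusted p = 0.687 in edgeR's test). miR-2887 stood at 1.05 and -0.95 and miR-2285ba at 0.62 and -0.41. miR-660 stood at 0.48 and -0.17 (gap 0.65 ± 0.32, adjusted p = 0.687 in edgeR's test). miR-379 stood at nearly the same difference on both diets, -0.63 on grass and -0.72 on concentrate, against -0.15 and 0.19 in Holstein-Friesian steers on grass and concentrate. These 2 Charolais values share 4 steers, and its gap between breeds on grass, -0.47 ± 0.36, did not pass. miR-146a stood at -0.40 in Charolais steers on concentrate and at -0.01 and 0.23 in Holstein-Friesian steers on grass and concentrate. For miR-146b the same 3 values were -0.23, -0.23 and 0.37. For miR-149-5p they were -0.26, -0.07 and -0.51, and for miR-7 they were -0.27, -0.09 and 0.89. In Holstein-Friesian steers on concentrate both thus had the sign opposite to that in Charolais steers on grass. Neither passed there (SE 0.20 and 0.30, adjusted p = 0.381 and 0.270 in edgeR's test).

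**Figure D5:**
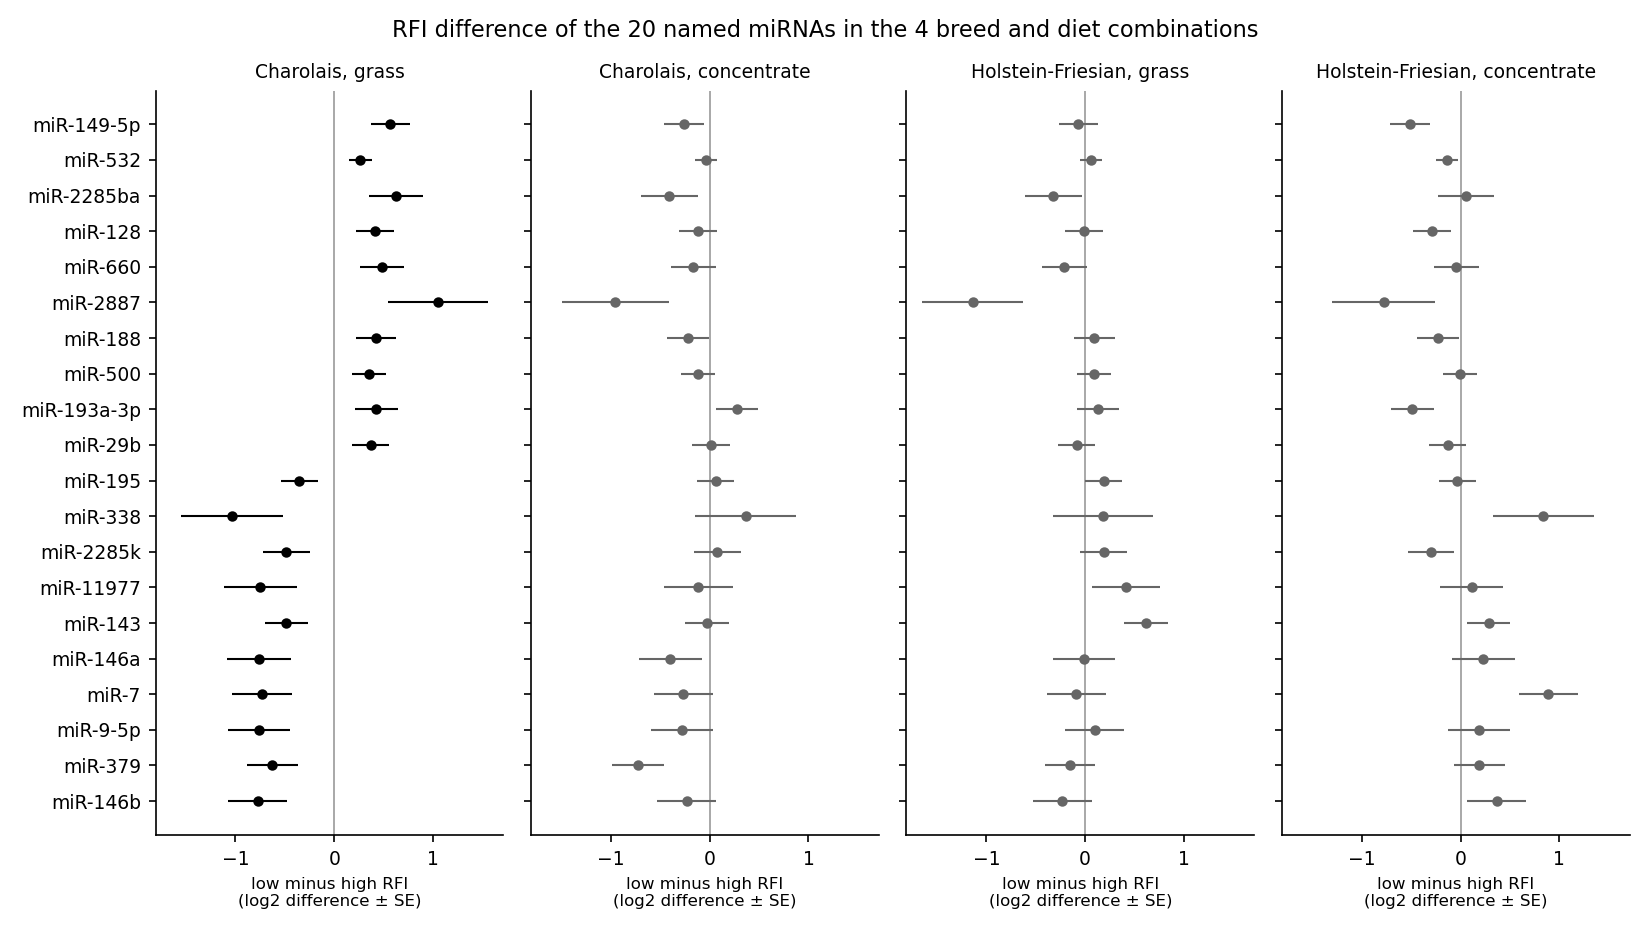
Log2 difference of low minus high RFI ± SE for the 20 miRNAs named by smallest p in Charolais steers on grass (left panel, black) and for the same miRNAs in the other 3 breed and diet combinations (grey). The miRNAs were picked on the left panel, so the panels are shown side by side and not as a test; miR-379 lies at -0.63 and -0.72 in the Charolais panels and miR-143 at 0.61 in Holstein-Friesian steers on grass.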

How the data were processed

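Small RNA counts of skeletal muscle were taken from a single table in which the authors deposited estimated counts, not normalized, for 1030 miRNA names in 64 libraries. Per the labels' protocols, RNA came from a Qiagen RNeasy Plus Universal kit and libraries from an Illumina TruSeq stranded RNA kit. Size selection, aligner, counter and miRNA annotation were not given in the sources used here. Tools named, without their roles, are FastQC 0.11.8, cutadapt 2.6, R 3.4 and edgeR 3.5, with build ARS-UCD 1.2, per the submitters' processing notes. Columns were matched to libraries by the description label, and 0 stayed unmatched. Of the names 61 held fractional values (more than 0.001 from a whole number), which were rounded, so names that share reads have an uncertain split. miR-2285b was not used because of 3 empty cells. No mature sequences or coordinates are printed, and gene neighbours are from RefSeq (ARS-UCD2.0), which matched 312 of the 318 tested names.

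Differences were fitted in R 4.3.3 with edgeR 4.0.16 across all genes in the 64 libraries. The fit used TMM factors, filterByExpr over the 8 groups, robust quasi-likelihood, 8 group means and 56 residual degrees of freedom. The filter left out 711 names, which held 0.00595% of the counts in the 64 libraries. Benjamini-Hochberg adjustment was made within a contrast and calls at 0.05. P is unadjusted unless stated, and SE is the log2 difference divided by the square root of F. Counting precision follows from 5632140 to 10413700 counts per library, and Wilson intervals cover only counting error, since the labels mention no molecular identifiers that would tell PCR copies apart. Library measures had 2-sided exact permutation tests. The procedure was tested on simulated data. The closest of 120 library pairs differed by a chi-square of 105.738 per degree of freedom, so none was treated as a copy. Animal numbers in the labels pair libraries across diets: 59 animals, 5 with 2 libraries, with an estimated correlation of 0.389 within an animal. P-values of edgeR's test measure the spread between libraries pooled over the 8 groups. The 5 animals with 2 libraries entered that fit as separate steers. Those of the permutation tests measure the spread between the compared steers.

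Named miRNAs were the 10 with the smallest p in each direction, the 10 most abundant, the 3 most abundant tested of each list, any with non-overlapping groups, the 3 with the smallest p in each test of a difference between RFI effects, and arm partners. miRNAs named beyond this rule, such as neighbours and relatives, were chosen after their values were seen. The members and lists were chosen with earlier results of these data known. Alternatives were other scalings, filters and fits, DESeq2 1.42.0, limma-voom (limma 3.58.1), the animal as a random block, and leaving out libraries.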

Additional observations from a re-analysis of the deposited data

Results flagged for a closer look

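In 140 groups of 8 values (the 65 named miRNAs on log2(CPM + 0.5) and the 5 library measures, in each class) the highest and lowest library were compared with the rest by Dixon's test, which chance flags in about 1 of 20 groups. Values far from their group were found 11 times. miR-2887 stood at 2.82 CPM in high-RFI replicate 7, where the next highest high-RFI library held 0.789. miR-146b stood at 14.99 CPM in high-RFI replicate 5, where the next lowest held 39.4. miR-146a stood at 12.8 CPM in low-RFI replicate 4, where the next lowest held 22.8. miR-208a stood at 4.10 CPM in high-RFI replicate 8, where the next highest held 1.23. miR-126-5p stood at 7012 CPM in low-RFI replicate 8, where the next highest held 5251. miR-342 stood at 102 CPM in low-RFI replicate 6, where the next highest held 78.6. miR-21-5p was high in replicate 2 of both classes, at 4140 CPM in the low-RFI library (next highest 1666) and 2530 CPM in the high-RFI library (next highest 1406). High-RFI replicate 1 was low for 2 miRNAs, with miR-19b at 39.4 CPM (next lowest 170) and miR-145 at 194 CPM (next lowest 669). The TMM factor was 1.88 in low-RFI replicate 5, where the next highest was 1.202. That library also had the lowest share of miR-10b, 33.5% of its counts (95% Wilson interval 33.52 to 33.57). Without high-RFI replicate 5 the log2 difference of miR-146b was -0.91, and without high-RFI replicate 7 that of miR-2887 was 1.57. Without high-RFI replicate 1 that of miR-19b was 0.35, beside 0.52 with all libraries and 0.21 with total-count scaling, and that of miR-145 was 0.0415. Without low-RFI replicate 8 that of miR-126-5p was -0.34.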

How the results depend on the processing

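The count of miRNAs passing an adjusted p of 0.05 was 0 in every alternative run, for low against high RFI and for both tests of a difference between RFI effects. With the animal as a random replicate block limma-voom called 0 and gave 14 at an unadjusted p under 0.05; the block changed no call. Against 17 in the reported fit, that count was 8 with total-count scaling, 32 of 803 without a filter, 26 of 277 with filter and fit on the 16 libraries, 26 with the fit alone on them, 10 on the 32 grass libraries, 11 with limma-voom and 8 without the 4 steers also sampled on concentrate. Leaving out single libraries gave 10 to 20, with 10 reached without high-RFI replicate 1, 4, 6 or 8 and low-RFI replicate 3 or 7. Between breeds it was 12 with total-count scaling and 36 without a filter, against 21. Between diets it was 8 with total-count scaling, 44 without a filter and 11 with limma-voom against 17, and 8 to 32 without single libraries (8 without high-RFI replicate 4, 32 without low-RFI replicate 5). The difference in miR-10b share ran from -1.32 to 3.02 percentage points without single libraries. That of the 5 most abundant ran from 1.47 to 3.27, beside 2.16 with all libraries (exact permutation P = 0.1992, unadjusted). The 3.27 was reached without low-RFI replicate 5 (exact permutation P = 0.0230, unadjusted). That run was picked as the largest difference of this measure among many runs that each left out a library.

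Of 65 named miRNAs 40 kept their sign in every alternative. Among them were all 20 named by smallest p. Those were picked for differences that were large beside their SE, so their kept sign adds no support. With total-count scaling the sign turned for miR-378 (-0.0048), miR-10a (-0.25), miR-208a (-0.0677), miR-27b (-0.049), miR-450b (-0.0496), miR-424-5p (-0.12), miR-2284x (-0.0315), miR-2285ce (-0.12), miR-2285av (-0.018), miR-342 (-0.13) and miR-145 (-0.11). Without the steers on both diets it turned for miR-10a (-0.0923), miR-208b (0.0245), miR-16b (0.0689), miR-92a (0.0136), miR-25 (0.0135), let-7f (0.0001), miR-450b (-0.0492), miR-2285ce (-0.0664), miR-451 (0.14), miR-144 (0.30), miR-145 (-0.0556) and miR-215 (0.48). With limma-voom it turned for miR-10a (-0.0504) and miR-215 (0.0346), and with the replicate block for miR-92a (0.0081), miR-2285ce (-0.0142) and miR-215 (0.16). With upper-quartile scaling it turned for miR-30e-5p (0.012), let-7f (0.0243), let-7a-5p (0.0152) and miR-450a (0.0027). let-7f also turned with RLE (0.0002), with filter and fit on the 16 libraries (0.0001) and with DESeq2 (0.0001). miR-342 turned without a filter (-0.0019) and with the fit on the 16 libraries (-0.0256).

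Without single libraries the sign turned within these ranges: miR-10a -0.0827 to 0.17, miR-30e-5p -0.0651 to 0.0598, miR-208b -0.15 to 0.0533, miR-208a -0.48 to 0.83, miR-16b -0.13 to 0.0359, miR-92a -0.11 to 0.0336, let-7f -0.0414 to 0.0498, let-7a-5p -0.0446 to 0.0358, miR-381 -0.24 to 0.0335, miR-424-5p -0.0506 to 0.20, miR-450a -0.12 to 0.0692, miR-2285ce -0.0368 to 0.11, miR-451 -0.63 to 0.23, miR-144 -0.63 to 0.40, miR-342 -0.0546 to 0.0393, miR-21-5p -0.0537 to 0.42 and miR-192 -0.10 to 0.005. The causes were not tested. With 8 steers a class the median SE was 0.23 on the log2 scale, and SEs ran from 0.0955 for let-7g to 0.73 for miR-451 among miRNAs at 100 CPM or more.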
